A study of Gossypium hirsutum with 12 samples.

Results

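In cotton root tips, 24 transcripts were present when seedlings were well watered and all but absent under water stress. They were found by a rule on the read counts. A gene was taken when its reads summed to 3 or fewer over the 6 water-stressed libraries, and when its mean level was at least 1 CPM (counts per 1000000 reads in genes of the library) in each of the well-watered groups. Of the 70477 genes counted, 39260 reached that well-watered minimum. Among these, 25 genes (0.0637%) had 3 or fewer reads under stress, and 24 of the 25 are described here. The remaining gene, Gh_A12G1931, a beta-amylase with 0 reads in all 6 water-stressed libraries, was left out by name. The other 4 genes left out by name did not meet the limits. The well-watered means and the stressed read sums therefore chose the 24 genes, and the difference between stressed and well-watered tips is given below as a description, with no test read from it.

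The libraries came from primary root tips of upland cotton (Gossypium hirsutum) cv. AU90810, a genotype the study chose for its relative tolerance of water stress in root elongation. All seedlings grew in the dark in vermiculite, and tips of several seedlings were pooled in each sample. Water-stressed (WS) seedlings had been moved to a medium of -1.0 MPa, and their last 6 mm were cut after 48 h (WS48) or 24 h (WS24). Well-watered (WW) seedlings grew at -0.02 MPa, and their last 12 mm were cut after 48 h (WW48, the temporal control of WS48) or 24 h (WW24, its developmental control), with 3 libraries in each of the 4 groups, 12 in all. In bulk samples fewer cells of a type and less RNA per cell cannot be told apart, and the WS and WW tips also differed in length, so treatment and the tissue held in the tip cannot be told apart either. The comparison of WW48 with WW24 is between tips of equal length.

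The 13 genes with an assigned function belong to several systems of the growing root. MtN21/EamA-like proteins are membrane transporters, several of which move amino acids or auxin in Arabidopsis, and MtN3 proteins belong to the family of sugar exporters known as SWEETs. PYR1-like proteins are receptors of abscisic acid, the hormone that plants make as they lose water, and they inhibit PP2C phosphatases once the hormone is bound. WRKY proteins are transcription factors, many of them studied for roles in defence. Basic chitinases and family 17 glycosyl hydrolases cleave chitin and beta-1,3-glucans and are best known from defence and from the opening of plasmodesmata. SPIRAL1-like proteins bind cortical microtubules, whose order guides the direction of cell expansion in roots. No gene sequence is printed for these genes, and their chromosome is read from the gene identifier, in which A and D name the subgenomes of this allotetraploid.

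Reads in genes numbered 6433993 to 11316010 per library. Over the 6 WS libraries, 1 CPM corresponded to 60.3 reads, so the limit of 3 reads was worth 0.0498 CPM. WW24 replicate 2 stood apart from the other WW24 libraries. When the counts of replicates were compared in pairs, chi-square over its degrees of freedom came to 32.3 and 30.6 for the pairs with this library, and to 2.03 to 11.6 for all others. The counts and medians of the comparison of WW48 with WW24 are given with and without it.

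The 24 genes together had 6, 14 and 4 reads in WS48 replicates 1, 2 and 3, and 2, 1 and 0 reads in WS24 replicates 1, 2 and 3. In the WW48 libraries they had 1970, 1684 and 1883 reads, and in the WW24 libraries 313, 1162 and 637 reads. Summed levels were 0.589, 1.32 and 0.435 CPM in WS48, 0.192, 0.0978 and 0 CPM in WS24, 201, 262 and 169 CPM in WW48, and 36.7, 143 and 56.3 CPM in WW24. The summed levels of the stressed and well-watered libraries did not overlap, and the rule chose the genes for this difference. It set no minimum for a single WW library, and Gh_D05G0852 and Gh_D11G1180 had no read in WW24 replicate 1. By count of reads under stress, 9 genes had 0, 6 had 1, 6 had 2 and 3 had 3. In the WW libraries a gene had 61 to 2329 reads in all. At the level of single libraries, 22 of the 24 had a read in each of the 6 WW libraries and 9 had at least 1 CPM in each.

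**Figure D1:**
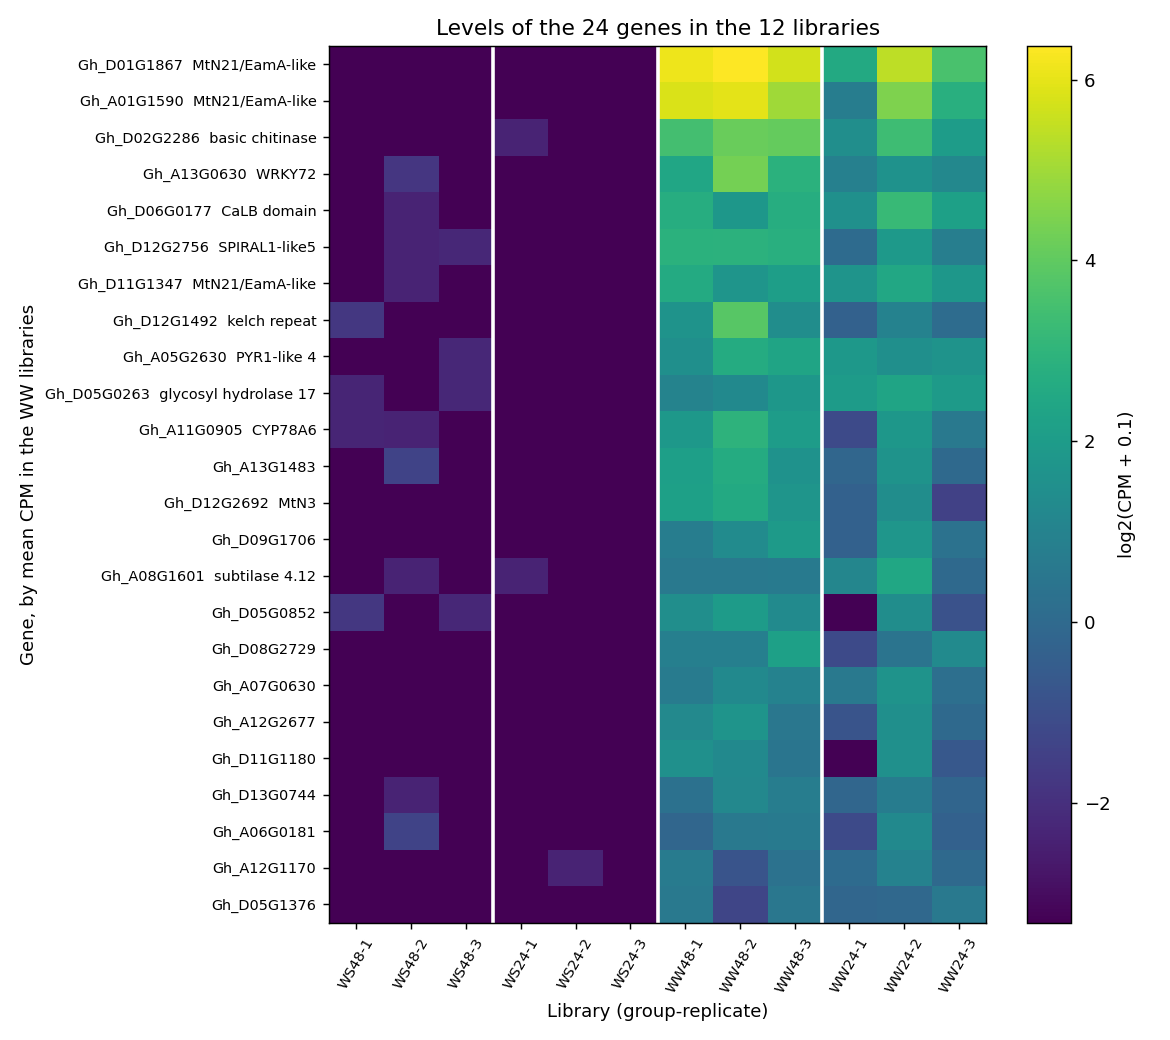
Level of each of the 24 genes (rows, by mean well-watered CPM, which is not corrected for gene length) in each library (columns, group and replicate), as log2(CPM + 0.1). The 6 WS columns are dark except for the 27 stray reads, 24 of them in WS48, and WW24-2 is brighter than WW24-1 and WW24-3 in 21 of the 24 rows.

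The few reads left under stress lay mostly at 48 h. Of these 27 reads, 24 (88.9%) were in WS48 and 3 in WS24, and 14 (51.9%) were in WS48 replicate 2 alone. Among 39 genes that met the well-watered minimum and had 4 to 10 reads under stress, 59.7% of the reads were in WS48 and 25.8% in WS48 replicate 2. Over all 39260 genes that met the minimum, the shares were 49.7% and 17.5%. No read of 21 of the genes was found in WS24, and none of 11 in WS48. The limit of 3 reads bears on these shares, and they were not tested.

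All 24 genes passed the filter on low counts and entered the edgeR quasi-likelihood fit over 43938 genes, in which a gene was called where its p, adjusted by Benjamini-Hochberg, was at most 0.05 and its log2 fold change was 1 or more up or down. In WS48/WW48 all 24 were called lower, where 5.98% of the genes tested were (and 3.18% were called higher). In WS24/WW24 the number was 23, beside 4.93% of all genes tested (3.75% higher), and in WS48/WW24 it was 20, beside 3.9% (3.57% higher). Gh_D11G1180 was not called in WS24/WW24 (adjusted p = 0.0692). In WS48/WW24 this gene, Gh_D12G1492, Gh_D05G0852 and Gh_A06G0181 were not called. Since the rule used these contrasts, nothing is read from the counts.

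Transporters formed the largest named set, with 3 MtN21/EamA-like genes and 1 MtN3 gene. Gh_D01G1867, an MtN21/EamA-like transporter on chromosome D01, had no read in any WS library, against 69.8, 82.7 and 52.3 CPM in the WW48 libraries and 5.75, 42.3 and 12.0 CPM in the WW24 libraries. Its level under stress was at least 845-fold lower, with 3 reads over the 6 WS libraries set in place of 0. Gh_A01G1590, of the same name on chromosome A01, likewise had no read under stress, against 56.0, 63.4 and 32.0 CPM in WW48 and 1.64, 22.7 and 6.89 CPM in WW24. It was at least 578-fold lower in WS. The 2 genes may be the A and D copies of 1 locus, and reads could have been divided between them in counting. In both, every WW48 library was above every WW24 library, and WW24 replicate 2 was the highest of its group.

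The remaining transporters had lower bounds or ratios of smaller size. Gh_D11G1347, the third MtN21/EamA-like gene, had 1 read in WS48 replicate 2 and none elsewhere under stress, against 6.01, 3.26 and 4.22 CPM in WW48 and 3.17, 5.53 and 3.45 CPM in WW24. The WW48 and WW24 values of this gene overlapped. Its ratio was 259-fold lower in WS, with a 95% exact interval of 46.1 to 10276 from the counts (this and all other intervals and bounds cover counting error only). Gh_D12G2692, the MtN3 gene, had no read under stress, against 4.48, 5.75 and 3.23 CPM in WW48 and 0.704, 2.58 and 0.265 CPM in WW24. It was at least 53.3-fold lower in WS, and its WW48 libraries lay above its WW24 libraries.

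The chitinase and the glycosyl hydrolase are enzymes that act on glycans. Gh_D02G2286, a basic chitinase, had 1 read in WS24 replicate 1 as its only read under stress, against 11, 17.6 and 16.6 CPM in WW48 and 2.70, 10.1 and 3.98 CPM in WW24. This was 605-fold lower in WS (95% exact interval 108 to 23948). The 2 WW groups did not overlap in CPM scaled by library total alone, the lowest WW48 library being narrowly above WW24 replicate 2. Gh_D05G0263, an O-glycosyl hydrolase of family 17, had 1 read each in WS48 replicates 1 and 3, against 1.94, 2.33 and 3.41 CPM in WW48 and 3.87, 4.92 and 3.80 CPM in WW24. It was 102-fold lower in WS (27.9 to 851). This was the only one of the 24 genes whose WW48 libraries all lay below its WW24 libraries.

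The genes of hormone perception and transcription were the PYR1-like receptor and WRKY72. Gh_A05G2630, a PYR1-like 4 abscisic acid receptor, had 1 read in WS48 replicate 3, against 2.75, 6.06 and 4.94 CPM in WW48 and 3.52, 2.70 and 3.09 CPM in WW24. It was 226-fold lower in WS (40.2 to 8986), and its WW groups overlapped. Gh_A13G0630, named WRKY DNA-binding protein 72, had 2 reads in WS48 replicate 2, against 5.20, 20.2 and 7.18 CPM in WW48 and 1.76, 2.95 and 2.21 CPM in WW24. It was 177-fold lower in WS (48.6 to 1467). WW48 replicate 2 was the highest library, and each of the other WW48 libraries was also above every WW24 library.

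Of the cytoskeletal, oxidative and other named genes, those higher in WW48 come first. Gh_D12G2756, SPIRAL1-like5, had 1 read each in WS48 replicates 2 and 3, against 7.23, 7.46 and 6.91 CPM in WW48 and 0.938, 3.69 and 1.68 CPM in WW24. Its WW48 libraries were close to each other, and the ratio was 138-fold lower in WS (37.7 to 1143). Gh_D12G1492, of the galactose oxidase/kelch repeat superfamily, had 2 reads in WS48 replicate 1, against 3.06, 14.3 and 2.60 CPM in WW48 and 0.704, 1.84 and 0.972 CPM in WW24. As in WRKY72, WW48 replicate 2 was by far the highest library, and the ratio was 99.6-fold lower in WS (27.2 to 829). Gh_A11G0905, CYP78A6, a cytochrome P450 of a subfamily known in Arabidopsis for effects on organ and seed size, had 1 read each in WS48 replicates 1 and 2, against 3.46, 7.62 and 3.95 CPM in WW48 and 0.352, 3.44 and 1.41 CPM in WW24. It was 94.7-fold lower in WS (25.8 to 788), and the lowest WW48 library barely passed WW24 replicate 2.

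The last 2 named genes did not separate the WW groups. Gh_D06G0177, with a calcium-dependent lipid-binding (CaLB) domain, had 1 read in WS48 replicate 2, against 6.42, 3.42 and 6.46 CPM in WW48 and 2.82, 9.22 and 4.51 CPM in WW24. It was 334-fold lower in WS (59.5 to 13242). Gh_A08G1601, subtilase 4.12, a serine protease of the secreted subtilisin type, had 1 read each in WS48 replicate 2 and WS24 replicate 1, against 1.43, 1.40 and 1.44 CPM in WW48 and 2.11, 5.41 and 0.884 CPM in WW24. It was 60.4-fold lower in WS (16.3 to 505). The WW24 libraries of the subtilase spread far more than its WW48 libraries.

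No function was at hand for the other 11 genes. Gh_A13G1483 had 3 reads under stress, all in WS48 replicate 2, against 4.38, 6.06 and 2.96 CPM in WW48 and 0.821, 3.07 and 0.884 CPM in WW24. Gh_D09G1706 had no read under stress, against 1.63, 2.49 and 3.77 CPM in WW48 and 0.704, 3.32 and 1.15 CPM in WW24. In both genes WW24 replicate 2 was the highest library of its group and overlapped WW48. Among the others, Gh_D05G0852 averaged 2.99 ± 0.787 CPM in WW48 and 1.01 ± 1.38 CPM in WW24 (SD, n = 3 each), with no read in WW24 replicate 1. Gh_D11G1180 averaged 2.15 ± 0.814 CPM in WW48 and 1.12 ± 1.5 CPM in WW24, and WW24 replicate 1 had no read of it either. Their WW24 means thus rested largely on replicate 2, without which they were 0.221 CPM for Gh_D05G0852 and 0.265 CPM for Gh_D11G1180.

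The remaining 7 genes were measured near the well-watered minimum. Gh_D08G2729 averaged 2.64 ± 1.60 CPM in WW48 and 1.32 ± 1.02 CPM in WW24 (SD, n = 3 each), and Gh_A12G2677 averaged 2.23 ± 0.881 CPM in WW48 and 1.35 ± 1.19 CPM in WW24. Means of Gh_A07G0630 were 1.91 ± 0.402 CPM in WW48 and 1.85 ± 1.08 CPM in WW24, and those of Gh_D13G0744 were 1.64 ± 0.528 CPM in WW48 and 1.07 ± 0.456 CPM in WW24. For Gh_A06G0181, Gh_A12G1170 and Gh_D05G1376 the WW48 means were 1.22, 1.05 and 1.03 CPM, and the WW24 means were 1.13, 1.22 and 1.03 CPM. In each of these 7 genes the WW48 and WW24 libraries overlapped. With no read under stress, Gh_D09G1706, Gh_D08G2729, Gh_A07G0630, Gh_A12G2677, Gh_D11G1180 and Gh_D05G1376 were at least 43.5-, 42.8-, 36.3-, 33.7-, 31.2- and 22.1-fold lower in WS. For Gh_D13G0744, Gh_A12G1170, Gh_A13G1483, Gh_D05G0852 and Gh_A06G0181, which had 1 to 3 reads, the ratios were 78.4-, 69.7-, 57.0-, 37.7- and 22.9-fold, with lower ends of the 95% exact interval at 13.6, 12.1, 19.1, 12.6 and 7.47. The order of these folds follows how many well-watered reads each gene had as well as its stressed reads.

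The comparison of WW48 with WW24 asked whether the 24 transcripts changed with age in well-watered tips, a difference the rule did not use, although it set a minimum in each group. One gene was called higher, WRKY72 (Gh_A13G0630), beside 3.53% of all genes tested, and the edgeR fit gave it a log2 fold change of 2.07 with a standard error of 0.54 and an adjusted p of 0.042. This call was narrow. Over the alternatives tried its adjusted p ran between 0.00616 and 0.183, and leaving out any 1 library other than WW24 replicate 2 or WW48 replicate 1 ended it. None of the 24 was called lower by edgeR (0 genes, beside 1.26% of all genes tested), DESeq2 (1.4%), limma-voom (1.02%) or edgeR's exact test (1.55%). At an unadjusted p under 0.05 the edgeR fit held 8 of the genes (33.3%, beside 25.0% of all genes tested), 7 of them higher in WW48 (29.2%, beside 12.9%) and 1 lower, Gh_D05G0263 (4.17%, beside 12.1%).

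Several others were higher in WW48 by similar amounts without passing the test. The log2 fold change was 2.32 (SE 0.74, edgeR adjusted p = 0.0799) for the kelch gene Gh_D12G1492, 2.11 (SE 0.73, adjusted p = 0.116) for the transporter Gh_A01G1590, 1.59 (SE 0.63, adjusted p = 0.161) for its counterpart Gh_D01G1867, and 1.63 (SE 0.45, adjusted p = 0.0507) for SPIRAL1-like5 (Gh_D12G2756). The chitinase Gh_D02G2286 stood at 1.27 (SE 0.45, adjusted p = 0.11) and the MtN3 gene Gh_D12G2692 at 1.80 (SE 0.70, adjusted p = 0.153). In the other direction the values were -0.84 (SE 0.35, adjusted p = 0.168) for the family 17 hydrolase Gh_D05G0263 and -1.11 (SE 0.61, adjusted p = 0.281) for the subtilase Gh_A08G1601. The sign was positive for 17 of the 24 genes and negative for 7 with TMM or RLE scaling, and positive for 21 with library size alone. The median log2 fold change was 0.68, beside 0.0029 over all genes tested. It was 1.46 without WW24 replicate 2, 0.34 without WW24 replicate 1 and 0.39 without WW24 replicate 3, beside 0.017 to 0.018 over all genes tested. Over the 13 genes that still met the rule without WW24 replicate 2, the median in that fit was 0.53. In 8 genes (the transporters Gh_D01G1867, Gh_A01G1590 and Gh_D12G2692, the chitinase, WRKY72, SPIRAL1-like5, the kelch gene and CYP78A6) every WW48 library was above every WW24 library, beside 18.3% of all genes tested. In 1 gene, Gh_D05G0263, every WW48 library was below, beside 6.7%. These overlap counts used CPM without TMM scaling, whose factor was 0.857 for WW24 replicate 2 and 0.992 for WW48 replicate 1. Scaled by these factors, the WW groups of the chitinase and of CYP78A6 overlap.

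**Figure D2:**
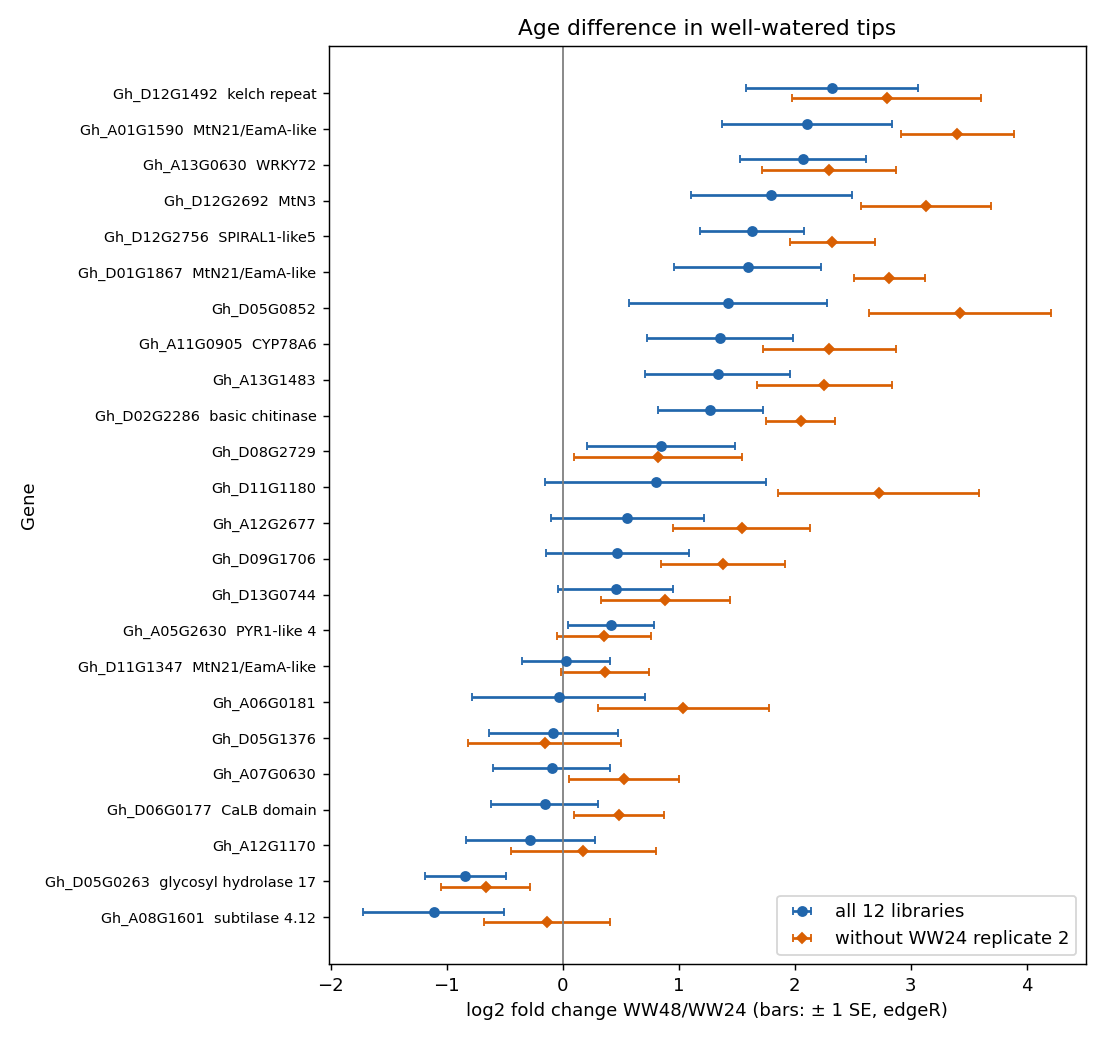
Log2 fold change of WW48 over WW24 for each of the 24 genes, from edgeR, with bars of 1 standard error, in the fit of all 12 libraries (circles) and without WW24 replicate 2 (diamonds). With all libraries 17 genes lie right of 0 and 7 left, and without that replicate 21 lie right of 0.

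The counts and the median of this comparison depended on WW24 replicate 2, in the fit and in the rule. Without it, 11 of the 24 genes were called higher, beside 9.66% of all genes tested, and 0 lower, beside 1.86%. The sign was positive for 21 of the 24. Every WW48 library was then above both remaining WW24 libraries in 16 of the 24 genes, beside 31.9% of all genes tested, and below both in 1, Gh_D05G0263, beside 21.1%. Without it 11 of the 24 genes also failed the well-watered minimum, since their WW24 mean then fell under 1 CPM. The rule thus took these 11 genes with low values in the remaining WW24 libraries. The counts over all 24 genes without this library are therefore a description. Of the 13 that still met the rule, 5 were called higher and 0 lower, beside 9.66% and 1.86% of all genes tested. The 5 called higher were the transporters Gh_D01G1867 and Gh_A01G1590, the chitinase, WRKY72 and SPIRAL1-like5. The overlap counts and the rule applied anew without this library were added after seeing the data.

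Spread among replicates was wide for these genes in the younger tips. The median coefficient of variation over the 24 genes was 0.324 in WW48 and 0.739 in WW24, against 0.172 and 0.266 over all genes that met the well-watered minimum. Without WW24 replicate 2 the WW24 medians were 0.357 for the 24 genes and 0.0968 for all genes that met the minimum, over 2 libraries. The sets were not matched for level, and counting error widens this coefficient where reads are few. A gene of the 24 had 61 to 2329 reads over the WW libraries, and how much of the spread was counting error was not tested. WW24 replicate 2 was the highest WW24 library in 21 of the 24 genes (87.5%), against 38.5% of all genes that met the minimum, and its level was 2.92 times the mean of replicates 1 and 3 in the median gene. Because the rule used the WW24 mean, genes carried over 1 CPM by this library were more likely to be taken, and the share is given without a test. The 3 exceptions were Gh_A05G2630, Gh_D08G2729 and Gh_D05G1376. In WW48, replicate 2 was the highest library in 14 of the 24 (58.3%), against 38.0%.

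Some tissue markers moved with the same libraries. The 10 genes named for xylem or for the enzymes and factors of its walls, none of which is among the 24, summed to 87.9, 156 and 94.9 CPM in WS48, 44.6, 34.0 and 51.2 CPM in WS24, 1030, 1440 and 765 CPM in WW48, and 223, 826 and 315 CPM in WW24. Ranked by this sum, the WW libraries ran WW48 replicate 2, WW48 replicate 1, WW24 replicate 2, WW48 replicate 3, WW24 replicate 3 and WW24 replicate 1, and ranked by the sum of the 24 genes they ran the same except that WW48 replicate 3 came before WW24 replicate 2. The MtN21/EamA-like pair Gh_D01G1867 and Gh_A01G1590 carried much of that sum. Without the pair the other 22 genes summed to 74.9, 116 and 84.6 CPM in WW48 replicates 1, 2 and 3 and 29.3, 77.8 and 37.4 CPM in WW24 replicates 1, 2 and 3, so that WW48 replicate 1 came after WW48 replicate 3 and WW24 replicate 2. WS48 replicate 2, which held most of the stray reads, had the highest xylem sum of the WS libraries. The xylem genes were called lower in 10 of 10 cases in WS24/WW24, in 6 of 10 in WS48/WW24 and in 6 of 10 in WS48/WW48, and none was at 0 under stress. They were called neither higher nor lower in WW48/WW24. Their part in the pattern of the 24 genes was not tested.

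**Figure D3:**
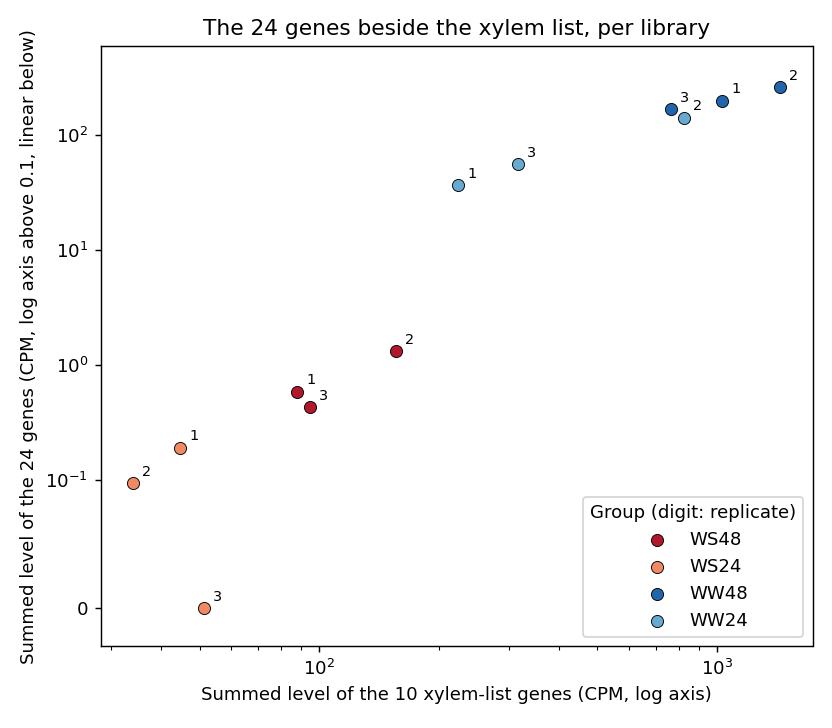
Summed level of the 24 genes (vertical) beside the summed level of the 10 xylem-list genes (horizontal) in each of the 12 libraries, both in CPM, coloured by group and numbered by replicate. The WW libraries lie at 36.7 to 262 CPM and the WS libraries at 0 to 1.32 CPM on the vertical axis, and WW24 replicate 2 lies near the WW48 libraries on both axes.

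Other markers also differed by library. In WW24 replicates 1, 2 and 3 the 29 phloem-named genes summed to 320, 564 and 343 CPM and the 2 root hair genes to 170, 509 and 207 CPM, so that replicate 2 was again the highest of its group. In both lists WW24 replicate 2 was also above every WW48 library, unlike in the xylem list and the sum of the 24 genes. Root hair sums were 394, 319 and 245 CPM in WW48 replicates 1, 2 and 3. They were 139, 128 and 173 CPM in WS48, where replicate 2 was the lowest, and 88.0 to 142 CPM in WS24. The 11 genes of dividing cells summed to 437, 373 and 404 CPM in WW24 replicates 1, 2 and 3, where replicate 2 was the lowest. Between treatments the dividing-cell sum was 838 to 975 CPM in WS48 and 1013 to 1101 CPM in WS24, against 302 to 343 CPM in WW48 and 373 to 437 CPM in WW24. Its genes went both ways, with 7 called higher and 2 lower of 11 in WS48/WW48, 7 higher and 3 lower in WS48/WW24, and 6 higher and 2 lower in WS24/WW24. Of the 21 phloem genes tested, 7 were called lower in WS48/WW48 and 0 higher, 6 lower and 1 higher in WS48/WW24, and 6 lower and 0 higher in WS24/WW24. Phloem sums were 141 to 153 CPM in WS48 and 129 to 146 CPM in WS24, against 426 to 558 CPM in WW48 and 320 to 564 CPM in WW24. A single root cap gene was called higher in all 3 stress comparisons. The 4 photosynthetic genes summed to 40.6, 59.6 and 43.0 CPM in WW24 replicates 1, 2 and 3. In WW48 they summed to 36.0, 26.4 and 34.0 CPM, so that WW48 replicate 2, highest in the xylem list, was here the lowest WW library. They summed to 8.29 to 11.5 CPM in WS48 and 19.3 to 20.6 CPM in WS24, with 2 called higher and 2 lower in WS48/WW48. Root tips held each of these marker sets in every library, and most of the marker genes had been picked by the study on these libraries, so their direction is not independent evidence. How far they account for the 24 genes was not tested.

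Other genes that share a name with one of the 24 showed how far the near-silence extended. The MtN21/EamA-like set had 13 genes, and of the 10 outside the 24 the calls were lower for 10 in WS48/WW48 (median log2 fold change -4.51), 8 in WS48/WW24 and 9 in WS24/WW24. None of these 10 met the read limit, and the lowest had 11 reads under stress. Gh_A13G1563, for example, had 0.491, 1.04 and 0.218 CPM in WS48 and 0, 0.0978 and 0.208 CPM in WS24, against 60.8, 82.8 and 46.7 CPM in WW48 and 24.6, 49.6 and 16.5 CPM in WW24. It was lower in every stressed library and was chosen here after its values were seen. All 5 other PYR1-like 4 genes and all 4 other MtN3 genes were called lower in each of the 3 stress comparisons, with at least 16 and 44 reads under stress. All 3 other kelch genes were called lower in WS48/WW48, and 1 of them in WS24/WW24. The lists come from the study's own tables of changed genes, so these counts are not independent evidence of direction. WRKY72, CYP78A6 and subtilase 4.12 had no other gene of the same name in those tables.

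In 3 of the names another gene went the other way. The other basic chitinase, Gh_D01G1682, had 7.07, 29.3 and 7.94 CPM in WS48 and 10.8, 10.4 and 8.51 CPM in WS24, against 1.22, 6.22 and 5.92 CPM in WW48 and 0.704, 1.35 and 2.12 CPM in WW24. By edgeR it was called higher in WS48/WW24 (log2 fold change 3.19, SE 0.66, adjusted p = 0.00785) and in WS24/WW24 (2.63, SE 0.66, adjusted p = 0.0203), but not in WS48/WW48 (1.71, SE 0.58, adjusted p = 0.0656). Of the 3 other family 17 hydrolases, Gh_A05G3256 and Gh_A13G1509 were called higher in all 3 stress comparisons and Gh_A08G0738 lower in all 3. Of the 2 other CaLB genes, Gh_A09G0410 was called higher in all 3 and Gh_A08G1624 lower in all 3. The other SPIRAL1-like5 gene, Gh_D08G1273, kept 279 reads under stress and was called lower in WS48/WW48 (log2 fold change -1.19, SE 0.21, edgeR adjusted p = 0.00291) and in WS48/WW24 (-1.49, SE 0.21, adjusted p = 0.000752), but not in WS24/WW24 (-0.69, SE 0.20, adjusted p = 0.0377), where the change was under the fold limit.

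Wider lists by function held few of the 24, and so did the genes with a function as a whole, at 13 of 1766. The 68 other transporters held 1 of the 24, the 24 cytochromes P450 held 1, the 84 genes of the transcription factor list held 1 and the 96 genes of the wall and glycan enzyme list held 2. In WS48/WW48 the other transporters were called lower in 37 of 68 and higher in 27, the transcription factors lower in 36 of 77 tested and higher in 25, and the wall and glycan enzymes lower in 31 of 80 tested and higher in 35. The 9 abscisic acid receptors of the PYR1-like names were called lower in all 9 in each stress comparison. Over all genes tested, 5.98% were called lower and 3.18% higher in WS48/WW48. The lower shares were 3.9% in WS48/WW24 and 4.93% in WS24/WW24. Most genes of these lists had been picked by the study as changed in these libraries, so the calls are not independent evidence of direction. None of the 24 was a peroxidase, a lipid-transfer protein or a kinase by name, and those lists had 28, 29 and 157 genes. With so few of the 24 among all genes with a function, nothing is read from how many each list held.

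Candidate copies in the A and D subgenomes, taken as genes of the same name on the same chromosome number, were found for 6 of the 24, and sequence was not used to test them. The 11 genes without a function have no name to match and were not searched. The transporters Gh_D01G1867 and Gh_A01G1590 are such a pair, and both were silent under stress. In the kelch pair Gh_D12G1492 had 2 reads under stress, and its candidate Gh_A12G1368 had 20, at 0.295, 0 and 0.326 CPM in WS48 and 0.384, 0.685 and 0.311 CPM in WS24, against 2.45, 11.5 and 2.69 CPM in WW48 and 0.938, 2.95 and 1.86 CPM in WW24. WW48 replicate 2 was the highest library of both. In the receptor pair Gh_A05G2630 had 1 read under stress, and Gh_D05G2920 had 16, at 0.283 to 0.326 CPM in WS48 and 0 to 0.480 CPM in WS24, against 6.84 to 8.35 CPM in WW48 and 7.87 to 8.56 CPM in WW24. Both receptors were thus low in all 6 WS libraries.

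In the other 2 pairs the second gene kept many reads under stress. The identifier numbers within each of these pairs lie far apart, and whether the genes are copies was not tested. Gh_D11G1347 had 1 read under stress, while Gh_A11G3026 had 522, at 8.37 ± 1.30 CPM in WS48 and 8.90 ± 0.700 CPM in WS24, against 39.0 ± 8.65 CPM in WW48 and 16.2 ± 4.54 CPM in WW24 (SD, n = 3 each). Gh_A11G3026 was called lower in all 3 stress comparisons and higher in WW48/WW24 (edgeR log2 fold change 1.12, SE 0.24, adjusted p = 0.0151). Gh_D05G0263 had 2 reads under stress, while Gh_A05G3256 had 1071, at 15.8, 11.1 and 15.6 CPM in WS48 and 21.6, 20.8 and 21.9 CPM in WS24, against 3.67, 3.11 and 4.04 CPM in WW48 and 5.98, 2.95 and 3.80 CPM in WW24. Its log2 fold change was 1.92 in WS48/WW48 (SE 0.23, edgeR adjusted p = 0.000231) and 2.20 in WS24/WW24 (SE 0.23, adjusted p = 7.46e-05). The 2 family 17 genes of chromosome number 5 therefore differed in direction, 1 near 0 in every stressed library and the other above its well-watered level in every stressed library.

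**Figure D4:**
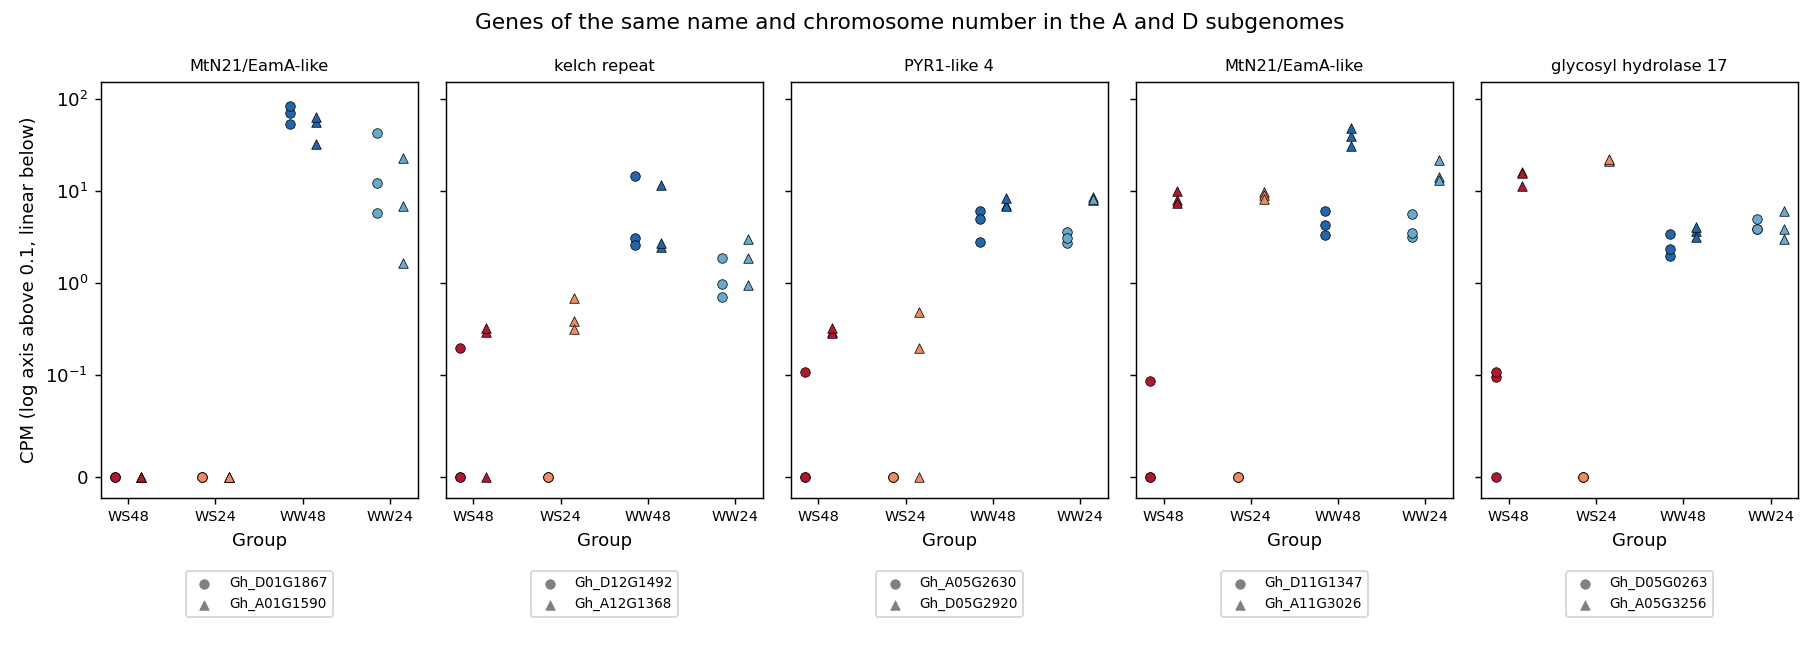
CPM in each library of 5 pairs of genes that share a name and a chromosome number across the A and D subgenomes, by group, with circles and triangles for the first and second gene of each pair and the axis linear below 0.1 CPM. Both MtN21/EamA-like genes of chromosome number 1 lie at 0 in all WS libraries, while Gh_A05G3256 lies above its WW libraries in all of them.

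Position in the genome was examined only through the gene identifiers, whose number is a label and not a coordinate. The 24 genes lay on 17 chromosomes, with 3 each on D05 and D12. Of these 14 (58.3%) were of the D subgenome and 10 (41.7%) of the A subgenome, against 50.0% and 48.7% of all genes that met the well-watered minimum. Of 96 genes whose number lay within 2 of one of the 24, none was among the 24 and 54 met the well-watered minimum. Among those 54, 7 were called lower in WS48/WW48 (5.67% of all tested genes that met the minimum were) and 8 in WS24/WW24 (5.30%). Of the 54, 2 had 30 or fewer reads under stress, as had 0.68% of all genes that met the minimum, Gh_A13G1482 with 8 and Gh_A06G0183 with 18. Gh_A13G1482 precedes Gh_A13G1483, and the gene before it, Gh_A13G1481, had 34 reads under stress and was called lower in all 3 stress comparisons (edgeR log2 fold change -3.48 in WS48/WW48, adjusted p = 0.000457). A pair of Ntn hydrolase genes, Gh_A06G0183 and Gh_D06G0179, follow Gh_A06G0181 and Gh_D06G0177 by 2 numbers and were called lower in all 3 stress comparisons.

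**Figure D5:**
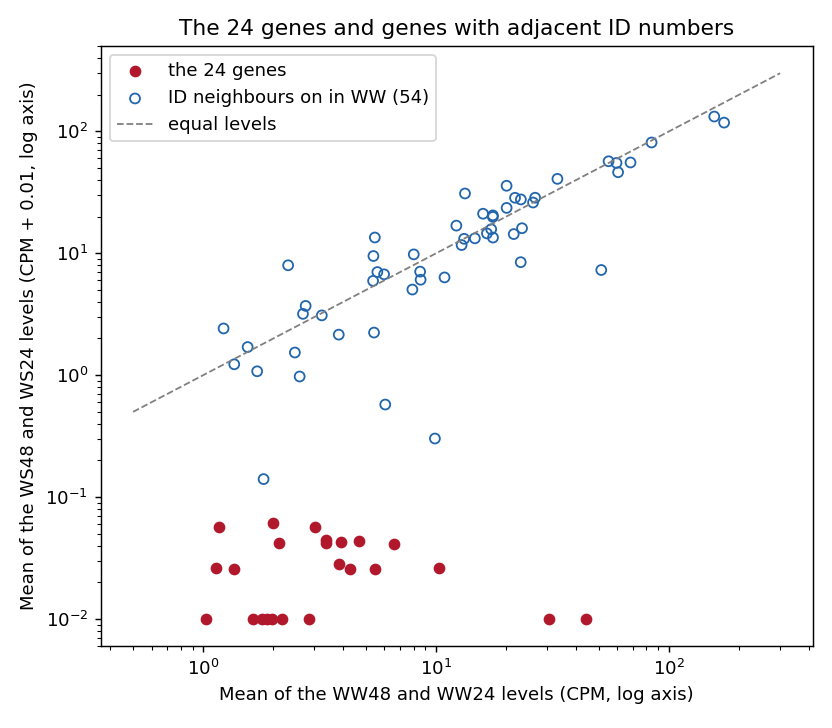
Mean of the WS48 and WS24 levels (vertical, CPM + 0.01) against the mean of the WW48 and WW24 levels (horizontal, CPM) for the 24 genes (filled) and the 54 genes with adjacent identifier numbers that met the well-watered minimum (open), on log axes with a line of equal levels. Most of the open circles lie near the line, and the filled ones lie under 0.1 CPM because the rule placed them there.

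The limits of the rule fell in a sparse range. Among genes that met the well-watered minimum, 10 had 0 reads under stress, 25 had 3 or fewer, 64 had 10 or fewer, 267 had 30 or fewer and 2685 had 100 or fewer, and the median was 610 reads. Just inside the read limit, with 3 reads, were Gh_A13G1483, Gh_D05G0852 and Gh_A06G0181. Just outside it, with 4 reads, were Gh_D03G1574, at 2.04 CPM in WW48 and 1.27 CPM in WW24, and Gh_A09G1058, at 1.65 CPM in WW48 and 1.31 CPM in WW24. Closest to the well-watered minimum were Gh_D05G0852 (1.01 CPM in WW24), Gh_D05G1376 (1.03 CPM in WW48) and Gh_A12G1170 (1.05 CPM in WW48). Just under it were Gh_D02G2336 (0.949 CPM in WW48, 2 reads under stress), Gh_A05G0508 (0.853 CPM in WW24, 3 reads) and Gh_A05G1715, nitrate transporter 1:2 (6.65 CPM in WW48 and 0.821 CPM in WW24, 1 read).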

How the data were processed

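The 12 libraries held 3 samples from independent experiments in each of 4 groups. The authors aligned the single-end reads to the cotton genome NAU-NBT v1.1, and the submitters' processing notes name HISAT2 1.0 and HTSeq 0.6.1. The deposited table holds raw read counts for each gene, in whole numbers, and, beside them, the authors' normalized values rounded to whole numbers (a score), which were not used here. The 4 lines that name no gene held 16.9% to 19.1% of reads outside genes, 13.3% to 20.6% not aligned and 0.158% to 0.205% ambiguous, and were left out of library sizes. Libraries were strand-specific, and the strand setting of the counting is not stated in the labels or methods, so antisense partners, like near-identical A and D copies, may share reads.

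Counts were analysed with edgeR 4.0.16 in R 4.3.3: default low-count filter (minimum count 10, total 15), TMM scaling (0.857 to 1.058), 1 model of the 4 groups with a prior count of 0.125, quasi-likelihood tests and Benjamini-Hochberg adjustment over 43938 genes. Standard errors were taken from the F statistic. A fold against 0 reads used a floor of 3 reads over the group, and ratios have exact 95% intervals conditional on the counts. The procedure was tested on simulated data with changes in WW48 alone. That simulation had no genes made silent under stress and no library that stood apart, so it does not bear on those features. Functions came from the study's supplementary tables (1766 genes matched; 1 table was held only as its first 1998 lines), and the RefSeq gene table matched 0 cotton identifiers. Every gene with a function was named, with library values for at most the 15 with the highest well-watered level, as were 10 of the 11 genes without one, genes called in WW48/WW24, candidate copies and genes nearest the limits; the eleventh was added so that all are accounted for. The members and lists were chosen with earlier results of these data known. Alternatives were other scalings, filters, thresholds and tools (DESeq2 1.42.0, limma-voom 3.58.1, edgeR's exact test), the WW libraries alone, a replicate block and leaving out each library.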

Additional observations from a re-analysis of the deposited data

How the results depend on the processing

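The number of genes that met the rule was 9 with no read allowed under stress, 60 with up to 10 reads, 52 with a minimum of 0.5 CPM, 9 with 2 CPM, 9 with 1 CPM required in each WW library and 13 with library totals that include the lines naming no gene. It was 24 with TMM-scaled CPM. Leaving out each library gave 13 (without WW24 replicate 2) to 32 (without WS48 replicate 2). In WW48/WW24 the number called higher was 2 with library size alone (beside 5.16% of all genes tested in that fit), 2 with no filter (2.95%), 3 with DESeq2 (4.1%), 6 with limma-voom (3.45%), 3 with edgeR's exact test (4.95%), 0 with the WW libraries alone (0.738%), 0 at an adjusted p of 0.01 (0.869%), and 0 to 11 when each library was left out (11 without WW24 replicate 2, beside 9.66%, or 5 with the rule applied anew). The cause of these shifts was not tested, apart from the narrower limit of the stricter thresholds. Library size alone moved the median of all genes to 0.13 on the log2 scale. With the replicate block 6 genes were called higher, beside 4.61% of all genes tested. The labels do not say whether a replicate number marks 1 experiment across groups, and the main fit did not pair by it. Of 18 same-numbered pairs 6 correlated above 0.1. Their range was -0.19 to 0.40, beside -0.48 to 0.42 for pairs of different numbers. Of the 6 WW libraries 3 correlated best with their own number. These correlations cannot decide the question, so the replicate block is given as an alternative. None was called lower under any alternative, beside 0.224% to 1.86% of all genes tested, so nothing is read from this absence. Single genes kept their direction and side of the threshold in 461 of the alternative values, 26 values (10 genes) passed it and 12 (WRKY72) lost it. Log2 fold changes of 6 genes, none past the threshold, changed sign. Gh_A06G0181 gave 0.13 with library size alone, 0.40 with limma-voom, 0.0039 with the WW libraries alone, 0.25 with the replicate block, and -0.48 to 1.04 when each library was left out (positive without WW24 replicate 2 or WW48 replicate 1). Gh_A07G0630 gave 0.063, 0.12 and 0.031 with library size alone, limma-voom and the replicate block, and -0.42 to 0.53 with libraries left out (positive without WW24 replicate 2). Gh_D06G0177 gave 0.0062, 0.073 and 0.0051 with the same settings, and -0.49 to 0.49 with libraries left out (positive without WW24 replicate 2 or WW48 replicate 2). Gh_D05G1376 gave 0.043 with library size alone and -0.39 to 0.28 with libraries left out (positive without WW24 replicate 3 or WW48 replicate 2). Gh_A12G1170 gave -0.67 to 0.18 with libraries left out (positive without WW24 replicate 2 or WW48 replicate 2). Gh_D11G1347 gave -0.0049 with DESeq2 and -0.29 to 0.37 with libraries left out (negative without WW48 replicate 1, WW24 replicate 1 or WW24 replicate 3). Genes had as few as 61 reads over the WW libraries, which limits their precision.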
